A study of Mus musculus with 24 samples.

Results

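Transcripts of 10 genes of tumour necrosis factor (TNF) survival signalling were followed across the 8 groups of the study: the receptor adaptors Traf1, Traf2 and Traf3, the ubiquitin ligases Birc2 and Birc3, the caspase-8 regulator Cflar, the BCL2 relatives Bcl2a1a, Bcl2l1 and Mcl1, and the death receptor Fas. They were taken by gene name from a table of 55434 genes, and all 10 were found and passed the filter on low counts. The libraries came from mouse brain cells selected for the myeloid surface protein CD11b, 3 per group. In 6 groups, cells of neonatal MRL/lpr mice had been kept in culture for 48 h and then left unstimulated or given TNFa, the type I interferon IFNa, the type II interferon IFNg, the cytokine IL-6 or all 4 of them as a mixture for 6 h. The other groups were untreated cells of adult mice aged 16 weeks, from MRL/lpr and from MRL/MpJ. MRL/lpr mice carry the lpr allele of Fas and develop a disease like lupus. MRL/MpJ lacks that allele. Every cultured group, the unstimulated controls included, carries lpr. By its title, the series concerns the kinase IKBKE in neuropsychiatric lupus models. Cytokine doses are not stated in the labels, nor whether the libraries of a group came from separate animals, so p-values measure the spread between libraries, which may be technical.

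When TNF binds its receptor, TRAF2 and the inhibitor-of-apoptosis proteins cIAP1 (Birc2) and cIAP2 (Birc3) join a signalling complex that activates NF-kappaB. NF-kappaB in turn switches on survival genes, among them Birc3, Traf1, Cflar and Bcl2a1 relatives, which hold back caspase-8 and the mitochondrial route to cell death. TRAF3 restrains the alternative NF-kappaB pathway and also serves type I interferon induction, and FAS signals death through caspase-8. Microglia are the resident macrophages of the brain and both make TNF and carry its receptors.

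Total counts were 10.08 to 19.32 M per library. The microglial markers (9 genes, Tmem119 and P2ry12 among them) were all read in every group. Their summed level was 5123 to 9676 CPM (counts scaled to a library total of 1 M) in the cultured and 41041 to 63046 CPM in the adult libraries. In culture, 10 T or NK cell markers summed to 4.07 to 12.3 CPM and 6 B or plasma cell markers to 6.94 to 47.8 CPM, highest with IFNg (22.7 to 47.8 CPM), where 1 B or plasma cell gene rose. Astrocyte markers (4 genes) summed to 19.5 to 262 CPM in culture, with a wide range in each cultured group. Neutrophil markers, of a cell type that also makes Bcl2a1 transcripts, summed to 5.0 to 129 CPM in culture and 208 to 561 CPM in adult libraries. Below, levels of single genes are CPM scaled by TMM, a method that removes differences in library composition, and are given for replicates 1, 2 and 3 in turn. Changes are log2 fold changes ± SE from edgeR, and "rose", "fell" and "called" mean an adjusted p under 0.05 over all genes tested.

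TNFa raised 8 of the 10 genes, and the mixture raised all 10. Of all 14626 genes tested in the cultured cells, 4.38% rose and 3.72% fell with TNFa, and 15.7% rose and 16.4% fell with the mixture. The median log2 change of the 10 genes was 1.56 with TNFa and 2.19 with the mixture, beside -0.02 and -0.05 over all genes. IFNg and IFNa each raised 8 genes as well, where 8.57% and 9.41% of all genes rose and 4.32% and 5.07% fell, with medians of 1.04 and 1.03. Under IL-6, 0 of 10 passed the edgeR test (0.745% of all genes passed upwards and 0.232% downwards), and DESeq2 called 1 (2.55% of all genes). An unadjusted p under 0.05 was found for 3. The matching share of all genes was not computed, so nothing is read from that count. The comparisons share the unstimulated libraries. The summed microglial markers were 8733 to 9676 CPM in unstimulated cells, 7827 to 8956 CPM with IL-6, 7636 to 8661 CPM with TNFa, 6430 to 8094 CPM with IFNg, 6309 to 6796 CPM with IFNa and 5123 to 6152 CPM with the mixture. Marker sums are scaled to library totals and not for library composition, which the tests do adjust for. In those tests the 9 genes went both ways: 2 rose and 2 fell with IFNg, and likewise with IFNa. With TNFa 1 rose and 2 fell, with the mixture 3 rose and 2 fell, and with IL-6 0 were called. Border macrophage markers summed to 297 to 320 CPM in unstimulated cells, 490 to 534 CPM with IL-6 and 215 to 220 CPM with IFNa. The part of these marker levels in the results was not tested. Among single cytokines, Traf3 was called with IFNg and TNFa, Bcl2a1a with IFNa and TNFa and Bcl2l1 with IFNg and IFNa, while Fas was called with the mixture. With the replicate number as a block, which the pairing of the cultured libraries allows, further calls were Bcl2a1a with IFNg (edgeR adjusted p = 0.0253), Fas with TNFa (0.0467), Bcl2l1 with IL-6 (0.0152) and, downwards, Bcl2l1 with TNFa (0.0105) and Bcl2a1a with IL-6 (0.0111). Single cytokines were not tested against each other, and a call with 1 cytokine and not with another does not show a difference between them. Only the mixture was tested against TNFa and against IFNg, below.

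**Figure D1:**
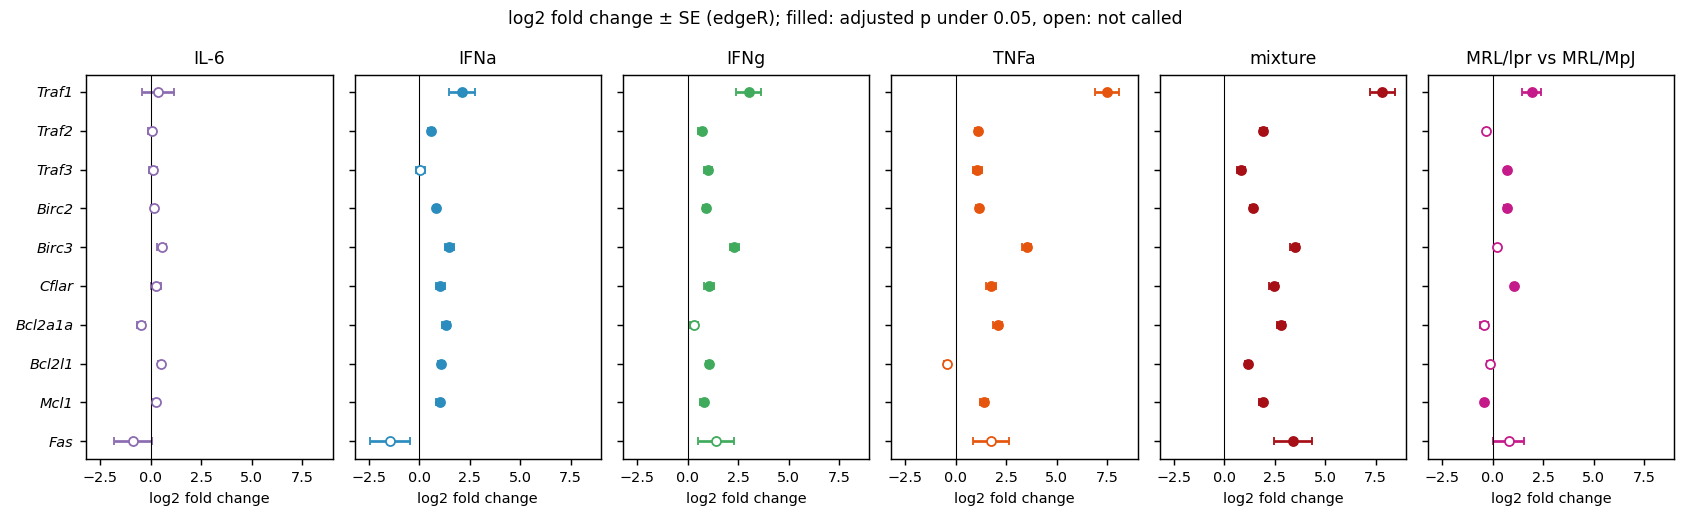
Points give the log2 fold change (x axis) of each of the 10 genes (y axis) against unstimulated cells, and in the last panel in adult MRL/lpr against MRL/MpJ cells. Bars are ± SE and filled points passed the edgeR test. Traf1 stands far to the right with TNFa and the mixture, and all 10 points of the mixture are filled.

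Scaling bears on these counts. With total counts in place of TMM, the median change of all genes moved by -0.418 with the mixture, by -0.187 with IFNg and by -0.176 with IFNa. Higher genes then made up 23.7% of calls in place of 48.8% with the mixture, 45.1% in place of 66.5% with IFNg and 43.3% in place of 65% with IFNa. The 10 genes kept their direction in the mixture under every scaling tried, and Traf3 lost its call there with total counts (0.40 ± 0.233, edgeR adjusted p = 0.188).

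Traf1 encodes an adaptor that joins TRAF2 and the cIAPs in the TNF receptor 2 complex (ENSMUSG00000026875, mm10 chromosome 2, 34941750 to 34961772, minus strand). It was close to silent in unstimulated cells, at 0.264, 0.448 and 0.177 CPM, and stood at 39.2, 52.5 and 68.1 CPM with TNFa. The groups were far apart, and the rise was 179-fold (7.49 ± 0.609, edgeR adjusted p = 1.07e-06). The mixture gave 46.4, 70.5 and 81.7 CPM, a range that overlaps that of TNFa, and a 226-fold rise (7.82 ± 0.614, edgeR adjusted p = 1.9e-07). IFNg gave 2.94, 0.77 and 3.33 CPM, with replicate 2 below the others, and an 8.14-fold rise (3.03 ± 0.623, edgeR adjusted p = 0.00381). IFNa gave 1.11, 1.69 and 0.985 CPM and a 4.35-fold rise (2.12 ± 0.662, edgeR adjusted p = 0.0426). That call rested on few reads, 57 against 14 over the groups, and was lost without any 1 of the 6 libraries (edgeR adjusted p = 0.0543 to 0.161) and without a filter on low counts (0.123). With IL-6, Traf1 stood at 0.61, 0 and 0.359 CPM, overlapping the unstimulated cells (0.36 ± 0.782).

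Traf2 encodes the adaptor that brings the cIAPs to the receptor (ENSMUSG00000026942, chromosome 2, 25517982 to 25546940, minus strand). Unstimulated cells held 20.1, 21.8 and 19.9 CPM, IFNg 30.4, 32.3 and 34.0, TNFa 40.5, 42.9 and 47.5, and the mixture 71.0, 79.2 and 79.0 CPM. These 4 groups did not overlap, and the mixture held the highest level of the 8 groups, though cultured and adult cells were not tested against each other. The rise was 1.62-fold with IFNg (0.69 ± 0.155, edgeR adjusted p = 0.00622), 2.15-fold with TNFa (1.11 ± 0.155, 0.000171) and 3.84-fold with the mixture (1.94 ± 0.158, 1.93e-07). IFNa gave 27.4, 37.0 and 25.2 CPM and a 1.5-fold rise (0.58 ± 0.155, edgeR adjusted p = 0.017), a call lost with total counts (0.0719) and without IFNa replicate 2 (0.127), unstimulated replicate 1 (0.054) or unstimulated replicate 3 (0.0623). IL-6 gave 16.0 to 23.2 CPM (0.04 ± 0.156), overlapping the unstimulated cells. A processed pseudogene, Gm13433, lies within Traf2 on the other strand.

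Traf3 (ENSMUSG00000021277, chromosome 12, 111166370 to 111267153, plus strand), whose product restrains alternative NF-kappaB signalling, was also read in every library. It stood at 28.3, 23.3 and 21.5 CPM in unstimulated cells, at 43.4, 47.7 and 51.5 with IFNg, and at 51.6, 52.4 and 46.3 with TNFa. Both rises were close to 2-fold (IFNg 1.01 ± 0.209, edgeR adjusted p = 0.00369; TNFa 1.06 ± 0.209, 0.00341). IFNa gave 19.7, 25.0 and 29.5 CPM, which overlapped the unstimulated cells (0.06 ± 0.209, edgeR adjusted p = 0.933). The mixture gave 37.8, 37.1 and 51.4 CPM, and its mean of 42.1 was below those of TNFa (50.1) and IFNg (47.5), with overlapping ranges. Against unstimulated cells the mixture gave a 1.79-fold rise (0.84 ± 0.209, edgeR adjusted p = 0.00543), and IL-6 a wide range of 15.9 to 33.1 CPM (0.10 ± 0.209). Traf3 overlaps the gene 4930595D18Rik on the other strand, and the strand setting of the counting is not given in the sources used here.

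Birc2 and Birc3 encode cIAP1 and cIAP2, ligases that attach ubiquitin to RIPK1 and so keep TNF signalling on the survival side. They lie in tandem on the minus strand of chromosome 9 with 11634 bases and 0 annotated genes between them (Birc2, ENSMUSG00000057367, 7818227 to 7837064; Birc3, ENSMUSG00000032000, 7848699 to 7873186). Birc3 stood at 12, 18.34 and 14.6 CPM in unstimulated cells, at 42.0, 48.3 and 31.5 with IFNa, at 58.3, 85.0 and 72.2 with IFNg, and at 139, 155 and 209 with TNFa. These 4 groups did not overlap. The rises were 2.81-fold with IFNa (1.49 ± 0.208, edgeR adjusted p = 0.00013), 4.96-fold with IFNg (2.31 ± 0.212, 2.87e-06) and 11.4-fold with TNFa (3.51 ± 0.222, 4.30e-08). With the mixture Birc3 reached 147, 160 and 177 CPM, within the range of TNFa alone (11.17-fold, 3.48 ± 0.221, edgeR adjusted p = 2.4e-08). IL-6 gave 20.4, 16.7 and 25.0 CPM, overlapping the unstimulated cells. Its difference had an unadjusted p of 0.0217 and did not pass over all genes (0.53 ± 0.207, edgeR adjusted p = 0.377).

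Fold changes of Birc2 were smaller than those of Birc3. Birc2 held 11.9, 14.8 and 14.8 CPM in unstimulated cells, 26.8, 28.8 and 33.6 with TNFa and 32.5, 35.5 and 38.6 with the mixture. The rises were 2.18-fold with TNFa (1.13 ± 0.139, edgeR adjusted p = 4.96e-05) and 2.66-fold with the mixture (1.41 ± 0.140, 1.26e-06). IFNg and IFNa raised it 1.87-fold and 1.80-fold (0.91 ± 0.139 and 0.85 ± 0.139, edgeR adjusted p = 0.000308 and 0.000501). IL-6 gave 13.4 to 15.4 CPM (0.15 ± 0.139), overlapping the unstimulated cells. Per kilobase of gene length, the pair stood near parity in unstimulated cells, with a Birc3 to Birc2 ratio of 0.896 to 1.13. The ratio was 1.33 to 1.67 with IFNa, 2.43 to 2.81 with IFNg, 4.12 to 4.19 with the mixture and 4.74 to 5.68 with TNFa. These 5 ranges do not overlap. With IL-6 the ratio was 0.990 to 1.49, which overlaps both unstimulated cells and IFNa. No test was made of the ratio.

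**Figure D2:**
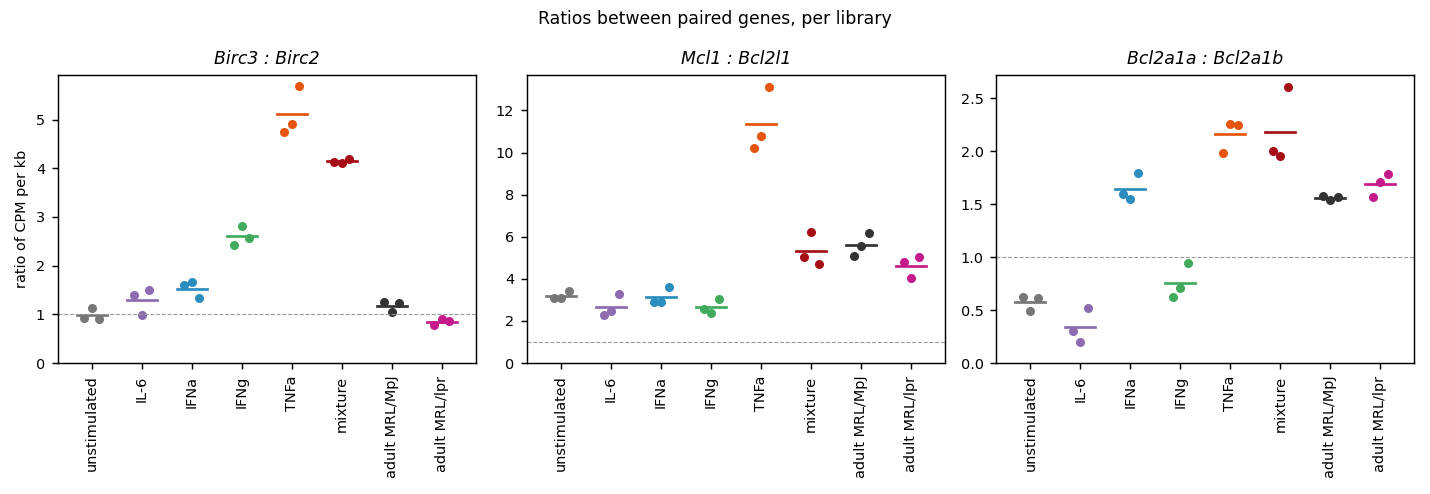
Each point is 1 library and each line the mean of 3, with groups on the x axis and the ratio of CPM per kilobase of 2 genes on the y axis. Dashed lines mark equal levels. With TNFa, Birc3 exceeds Birc2 by 4.74 to 5.68 times and Mcl1 exceeds Bcl2l1 by 10.22 to 13.1 times. As counted, Bcl2a1a exceeds its copy Bcl2a1b with TNFa, and Bcl2a1b is the higher of those 2 genes in unstimulated cells. Counts of these near-identical copies are uncertain.

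Cflar encodes c-FLIP, a relative of caspase-8 without protease activity that blocks its activation (ENSMUSG00000026031, chromosome 1, 58711508 to 58758884, plus strand). Its levels were 62.9, 75.1 and 104 CPM in unstimulated cells, 195, 265 and 326 with TNFa, and 354, 383 and 531 with the mixture. These 3 groups did not overlap. The rise was 3.31-fold with TNFa (1.73 ± 0.233, edgeR adjusted p = 0.00012) and 5.43-fold with the mixture (2.44 ± 0.239, 1.13e-06). IFNg (142 to 188 CPM) and IFNa (132 to 184 CPM) raised it 2.09-fold and 2.06-fold (1.06 ± 0.230 and 1.04 ± 0.230, edgeR adjusted p = 0.00503 and 0.00477). IL-6 gave 77.3 to 121 CPM, overlapping the unstimulated cells (0.25 ± 0.228).

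The BCL2 relatives guard the mitochondrial outer membrane against BAX and BAK. Mcl1, a short-lived protein of this family (ENSMUSG00000038612, chromosome 3, 95658788 to 95663176, plus strand), stood at 286, 342 and 445 CPM in unstimulated cells. TNFa gave 790, 975 and 990 CPM and a 2.62-fold rise (1.39 ± 0.189, edgeR adjusted p = 0.000127), and the mixture 1087, 1514 and 1231 CPM and a 3.71-fold rise (1.89 ± 0.191, 1.59e-06). IFNa (635 to 743 CPM) and IFNg (540 to 643 CPM) raised it 2.01-fold and 1.73-fold (1.01 ± 0.187 and 0.79 ± 0.186, edgeR adjusted p = 0.00134 and 0.00902). IL-6 gave 310 to 518 CPM, overlapping the unstimulated cells (0.23 ± 0.185). The other 4 groups lay above the unstimulated cells, though the IFNg call was lost without unstimulated replicate 1 (edgeR adjusted p = 0.0533).

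Bcl2l1, which encodes BCL-XL (ENSMUSG00000007659, chromosome 2, 152780668 to 152831728, minus strand), stood apart from the other members in its level with TNFa. Unstimulated cells held 123, 148 and 175 CPM, IFNg 283, 344 and 282, IFNa 293, 344 and 262, and TNFa 104, 121 and 101 CPM. The interferon groups lay above and the TNFa group below the unstimulated cells without overlap. The rises were 2.11-fold with IFNg (1.08 ± 0.147, edgeR adjusted p = 0.000114) and 2.08-fold with IFNa (1.06 ± 0.147, 0.000123). The difference with TNFa did not pass (-0.43 ± 0.146, edgeR adjusted p = 0.0917). It passed downwards with the replicate number as a block (0.0105), with DESeq2 (0.0282), with total counts (0.0187) and without unstimulated replicate 1 (0.0482), and over all settings tried its adjusted p ran from 0.0105 to 0.373. With the mixture, Bcl2l1 was at 289, 325 and 350 CPM, 2.24-fold above unstimulated cells (1.16 ± 0.147, edgeR adjusted p = 1.5e-05). With IL-6 it stood at 183, 207 and 210 CPM, above the unstimulated cells without overlap. That difference did not pass the edgeR test (0.49 ± 0.146, edgeR adjusted p = 0.183) and passed with DESeq2 (0.02) and with the replicate block (0.0152).

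The ratio of Mcl1 to Bcl2l1 was then read per library, and no test was made of it. Its range lay above that of unstimulated cells with TNFa and the mixture, just below it with IFNg, and overlapped it with IFNa and IL-6. Per kilobase, Mcl1 exceeded Bcl2l1 by 3.09 to 3.40 times in unstimulated cells, by 2.36 to 3.06 times with IFNg, by 2.89 to 3.63 times with IFNa, by 10.22 to 13.1 times with TNFa and by 4.72 to 6.24 times with the mixture.

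Bcl2a1a encodes A1, an NF-kappaB target of the BCL2 family (ENSMUSG00000102037, chromosome 9, 88956900 to 88962419, plus strand). The mouse has near-identical copies of it, and the coding sequences (519 bases each) of Bcl2a1a and Bcl2a1b differ at 11 bases, those of Bcl2a1a and Bcl2a1d at 7 and those of Bcl2a1b and Bcl2a1d at 6. The first 60 coding bases from the GENCODE transcripts are shown because no other stretch of 60 coding bases holds more differing positions. Even there, few positions can assign a read to 1 copy. Capitals mark the 6 positions that differ among the 3 copies.
Bcl2a1a: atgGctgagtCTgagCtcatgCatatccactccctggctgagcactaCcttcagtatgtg
Bcl2a1b: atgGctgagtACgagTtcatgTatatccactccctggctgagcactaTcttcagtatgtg
Bcl2a1d: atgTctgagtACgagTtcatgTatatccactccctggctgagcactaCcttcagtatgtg
Counts of single copies are therefore uncertain, and the treatment of reads that match several copies is not given in the sources used here.

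Bcl2a1a stood at 22.8, 28.3 and 31.1 CPM in unstimulated cells, 59.7, 63.3 and 76.9 with IFNa, 92.5, 118 and 126 with TNFa and 145, 206 and 205 with the mixture. These groups did not overlap. The rises were 2.51-fold with IFNa (1.33 ± 0.202, edgeR adjusted p = 0.00027), 4.17-fold with TNFa (2.06 ± 0.206, 6.24e-06) and 7.03-fold with the mixture (2.81 ± 0.211, 9.96e-08). IFNg gave 25.2, 36.6 and 38.4 CPM, a difference short of the threshold (0.33 ± 0.201, edgeR adjusted p = 0.362) that passed with the replicate block (0.0253). IL-6 gave 14.5, 18.1 and 24.5 CPM (-0.47 ± 0.203, edgeR adjusted p = 0.462), lower with the replicate block (0.0111).

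The copy Bcl2a1d rose as well, from 6.74, 12.1 and 12.8 CPM in unstimulated cells to 31.9, 45.3 and 40.6 CPM with TNFa (1.92 ± 0.277, edgeR adjusted p = 0.000218). Bcl2a1b did not pass. It stood at 36.3, 57.1 and 50.4 CPM in unstimulated cells and at 46.5, 52.3 and 55.8 CPM with TNFa (0.13 ± 0.237, edgeR adjusted p = 0.893). It rose with the mixture, to 72.6, 105 and 78.6 CPM (0.89 ± 0.238, edgeR adjusted p = 0.00834). Per kilobase, the Bcl2a1a to Bcl2a1b ratio was 0.494 to 0.626 in unstimulated cells, 1.55 to 1.80 with IFNa, 1.98 to 2.26 with TNFa and 1.95 to 2.60 with the mixture. The annotated transcript Gm29094 overlaps Bcl2a1b on the same strand, and the antisense gene Gm10634 overlaps Bcl2a1d. Upstream of their RefSeq starts, the windows of Bcl2a1a and Bcl2a1b aligned over 206 bases with 205 identical.

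Fas, the death receptor mutated by lpr (ENSMUSG00000024778, chromosome 19, 34290666 to 34327772, plus strand), was read at low levels in every group. In lpr, a transposable element inserted in an intron disturbs splicing of the transcript, which gene counts do not resolve. Fas stood at 1.32, 0.192 and 0.710 CPM in unstimulated cells and at 9.96, 4.89 and 8.11 CPM with the mixture, on 35 and 316 reads. The rise was 10.6-fold (3.40 ± 0.959, edgeR adjusted p = 0.0117). It missed the threshold without unstimulated replicate 2, the library with the lowest Fas level of its group (2.95 ± 1.04, 0.0505). TNFa gave 3.05, 2.24 and 2.08 CPM and IFNg 1.59, 2.1 and 2.06 CPM. Both groups lay above the unstimulated cells, and neither difference passed (1.73 ± 0.911 and 1.40 ± 0.909, edgeR adjusted p = 0.343 and 0.416), though TNFa passed with the replicate block (1.95 ± 0.654, 0.0467). IFNa gave 0.526, 0 and 0.227 CPM (-1.46 ± 0.977) and IL-6 0.864, 0 and 0.240 CPM (-0.88 ± 0.940), both overlapping the unstimulated cells, on 12 and 21 reads.

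**Figure D3:**
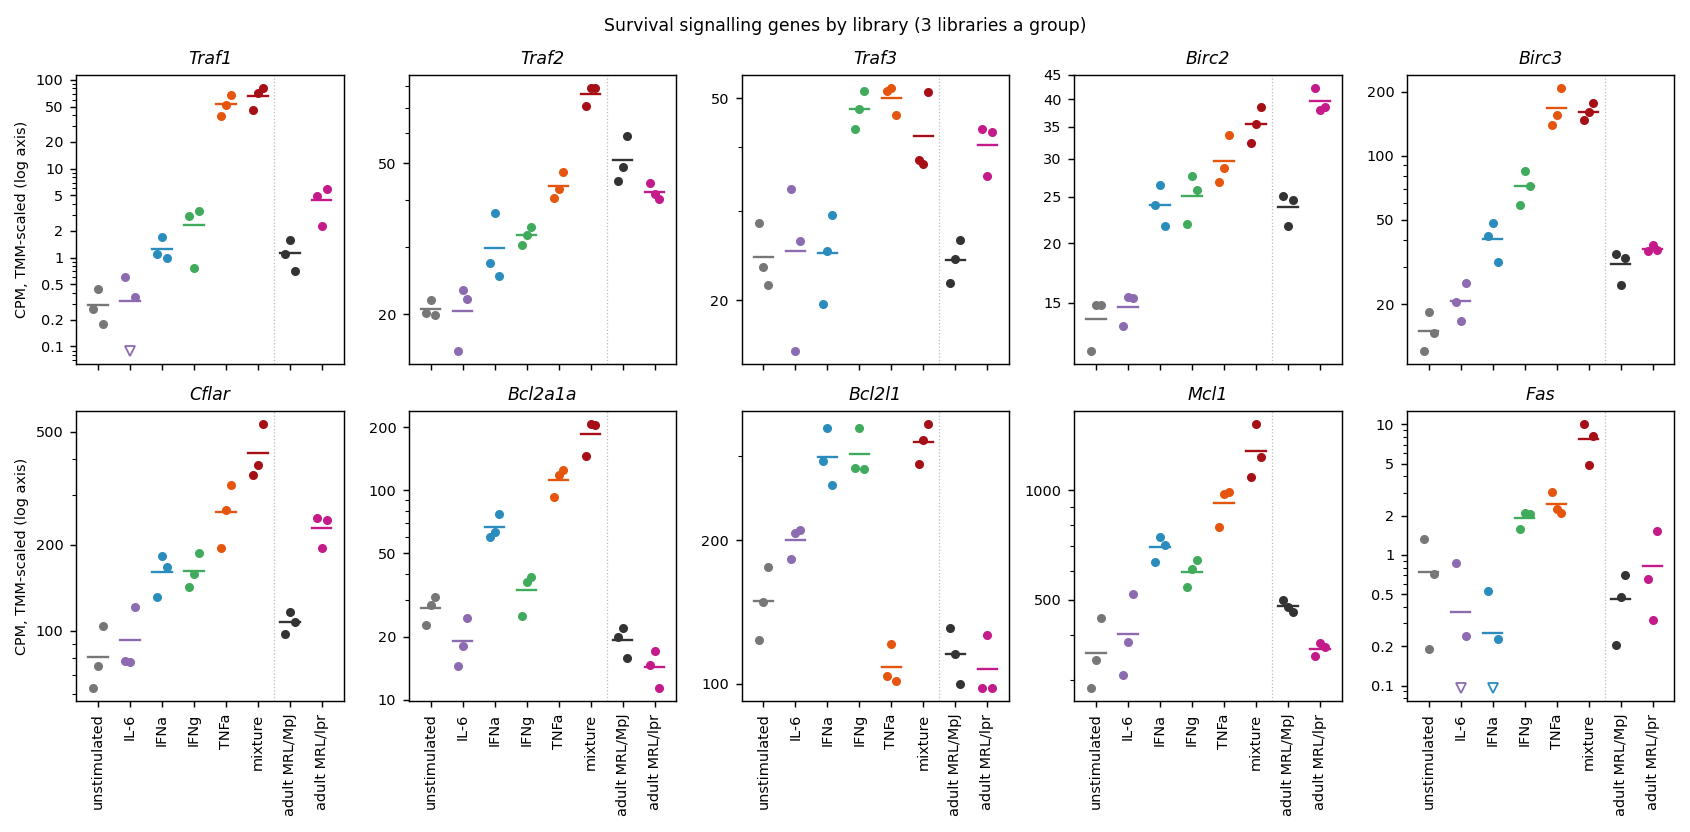
Each point is 1 library, lines are means of 3, groups are on the x axis and TMM-scaled CPM on a log y axis that differs between genes. Open triangles mark libraries with 0 reads, drawn below the lowest value. Traf1, Birc3, Cflar, Bcl2a1a and Mcl1 climb from unstimulated cells to TNFa, while Bcl2l1 is low with TNFa and high with the interferons.

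The mixture was compared with TNFa alone to ask what the other cytokines add. Of the 10 genes, 4 were higher with the mixture and 0 lower, where 12.6% of all genes were higher and as large a share lower. Bcl2l1 was 3.01-fold higher (1.59 ± 0.149, edgeR adjusted p = 1.52e-06), Traf2 1.79-fold (0.84 ± 0.153, 0.000678), Bcl2a1a 1.68-fold (0.75 ± 0.197, 0.00956) and Cflar 1.64-fold (0.71 ± 0.227, 0.0293). Without TNFa replicate 1 the count was 2, where 19.7% of all genes were called in either direction. Bcl2a1a (edgeR adjusted p = 0.0564) and Cflar (0.146) lost their call there. Cflar also lost it with total counts (0.079) and without TNFa replicate 2 (0.0782) or mixture replicate 3 (0.0946). Traf1 (0.34 ± 0.408), Birc3 (-0.03 ± 0.199), Birc2 (0.28 ± 0.136) and Traf3 (-0.22 ± 0.206) did not pass and their groups overlapped. Mcl1 (0.50 ± 0.185, edgeR adjusted p = 0.0581) and Fas (1.67 ± 0.885, 0.203) did not pass although their groups did not overlap. Both passed with the replicate block (0.00183 and 0.0447), and Mcl1 also with RLE scaling (0.032) and DESeq2 (0.012). With total counts, the median of all genes moved by -0.345 and higher genes made up 24.1% of calls in place of 49.9%.

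Against IFNg alone, 7 of the 10 genes were higher with the mixture and 0 lower, where 6.45% of all genes were higher and 7.83% lower. Traf1 was 27.8-fold higher (4.80 ± 0.495, edgeR adjusted p = 2.54e-05), Bcl2a1a 5.58-fold (2.48 ± 0.208, 4.16e-06) and Cflar 2.60-fold (1.38 ± 0.230, 0.000819). Traf2, Birc3 and Mcl1 were 2.37-fold, 2.25-fold and 2.15-fold higher, and Birc2 1.42-fold (0.50 ± 0.137, edgeR adjusted p = 0.0203), a call lost with total counts (0.114), without a filter (0.0589) and without IFNg replicate 1 (0.106). Bcl2l1 (0.09 ± 0.145) and Traf3 (-0.17 ± 0.207) did not pass. Fas did not pass (2.00 ± 0.898, edgeR adjusted p = 0.17), and passed with the replicate block (0.0337) and DESeq2 (0.0298). With total counts the median of all genes moved by -0.231. Higher genes made up 45.2% of calls, 21% with total counts and 56.3% with RLE scaling.

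The change with the mixture was then set against the sum of the 4 single changes on the log2 scale. Adding log2 changes multiplies the folds, so a gene below this sum can still exceed the added rises in CPM. A sum of rises in CPM was not tested. Of the 10 genes, 2 fell short of the sum and 0 exceeded it, where 1.14% of all genes fell short and 0.533% exceeded it. Birc3 changed by 3.48 with the mixture against a sum of 7.84 (difference -4.36 ± 0.577, edgeR adjusted p = 0.000857), and this call held in every setting tried, with an adjusted p of at most 0.0102. Birc2 changed by 1.41 against a sum of 3.03 (-1.62 ± 0.373, edgeR adjusted p = 0.037). Its call was lost without any of 12 of the 18 libraries (edgeR adjusted p up to 0.236, without unstimulated replicate 1) and without a filter on low counts (0.16). With the replicate block, where 6.56% of all genes were called, 5 genes fell short: Cflar (-1.69 ± 0.311, edgeR adjusted p = 0.00252), Mcl1 (-1.55 ± 0.316, 0.00529) and Bcl2l1 (-1.02 ± 0.299, 0.048) in addition. Traf1 changed by 7.82 against a sum of 13, and its difference of -5.16 ± 1.84 did not pass (edgeR adjusted p = 0.256; DESeq2 0.0461). Traf2 (-0.48 ± 0.412), Traf3 (-1.39 ± 0.562) and Bcl2a1a (-0.44 ± 0.532) did not pass (edgeR adjusted p = 0.813, 0.353 and 0.896). Fas was the only 1 of the 10 whose change with the mixture was larger than this log2 sum, 3.40 against 0.80, a difference (2.60 ± 2.37) that did not pass (edgeR adjusted p = 0.829).

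**Figure D4:**
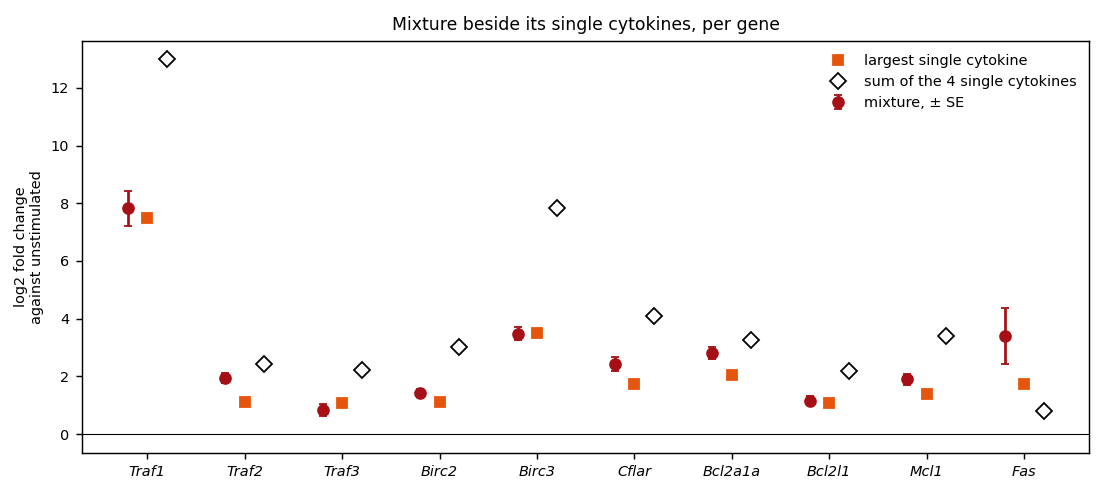
For each gene (x axis) the log2 fold change against unstimulated cells (y axis) is shown for the mixture with its SE, for the single cytokine with the largest change and for the sum of the 4 single cytokines. The mixture of Birc3 sits beside TNFa alone, at 3.48 and 3.51, far below the sum of 7.84.

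In adult microglia, MRL/lpr was compared with MRL/MpJ to see which members differ between diseased and control strains. Traf1, Traf3, Birc2 and Cflar were higher in MRL/lpr and Mcl1 was lower. These are 5 of 10 genes called, where 24.1% of all 13799 genes tested were higher and 21.6% lower. The share called among the 10 was thus close to that of all genes. Their median log2 change was 0.46, beside 0.01 over all genes.

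Cflar stood at 248, 195 and 244 CPM in MRL/lpr and at 97.1, 116 and 107 CPM in MRL/MpJ, a 2.1-fold difference (1.07 ± 0.114, edgeR adjusted p = 2.27e-05). Birc2 stood at 42.3, 37.9 and 38.6 against 25.1, 21.7 and 24.6 CPM (1.63-fold, 0.70 ± 0.125, edgeR adjusted p = 0.000774). Its adult MRL/lpr level was the highest of the 8 groups, with a range that overlapped the mixture. Adult and cultured cells differ in age and culture and were not tested against each other. Birc3 did not follow, at 35.7, 37.8 and 36.1 against 34.5, 24.7 and 33.1 CPM (0.22 ± 0.146, edgeR adjusted p = 0.253), and passed with total counts (0.48 ± 0.141, 0.0168). Per kilobase, the Birc3 to Birc2 ratio ran from 0.772 to 0.912 in the diseased strain and from 1.04 to 1.25 in the control strain.

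Traf3 was at 43.4, 35.1 and 42.9 CPM in MRL/lpr and 21.6, 24.1 and 26.2 CPM in MRL/MpJ (1.65-fold, 0.72 ± 0.133, edgeR adjusted p = 0.000947). Traf1 was at 4.99, 2.26 and 5.97 against 1.1, 1.6 and 0.705 CPM (3.81-fold, 1.93 ± 0.484, edgeR adjusted p = 0.00652). These levels were below those with TNFa in culture, a comparison that was not tested. Mcl1 was at 350, 379 and 370 against 498, 478 and 462 CPM (-0.42 ± 0.095, edgeR adjusted p = 0.00369), and lost its call with total counts (-0.16 ± 0.088, 0.175). Traf2 (-0.30 ± 0.126), Bcl2a1a (-0.44 ± 0.194) and Bcl2l1 (-0.13 ± 0.140) did not pass (edgeR adjusted p = 0.067, 0.0822 and 0.478). Traf2 passed without MRL/MpJ replicate 1 (0.0466) and Bcl2a1a did so without the second MRL/lpr (0.0326) or the third MRL/MpJ library (0.0435). Fas stood at 0.651, 0.316 and 1.52 CPM in MRL/lpr and 0.206, 0.479 and 0.705 CPM in MRL/MpJ (48 and 20 reads; 0.79 ± 0.783, edgeR adjusted p = 0.438), and no check of the strain labels was drawn from it.

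Markers of some other cells moved with the strain, where 24.1% of all genes were higher in MRL/lpr and 21.6% lower. Of 10 T or NK cell markers 5 rose, and the list summed to 52.7 to 59.3 CPM in MRL/lpr against 9.93 to 27.2 CPM in MRL/MpJ. B or plasma cell markers, with 1 gene higher and 1 lower of 6, summed to 580 to 685 against 362 to 402 CPM. Border macrophage markers fell in 5 of 5 and summed to 60.4 to 113 against 186 to 224 CPM. Other lists moved less. Among 6 neutrophil markers 1 fell, and their sums overlapped (287 to 334 against 208 to 561 CPM). Monocyte and neuron markers rose in 1 of 4 and 1 of 3, and oligodendrocyte markers fell in 2 of 4. Astrocyte and endothelial markers, with 3 tested in each list, had 0 called. Of 9 microglial markers 7 fell, and in bulk libraries fewer cells of a type and less RNA per cell cannot be told apart. Of genes chosen after their values were seen, the immediate early genes Fos (1.44 ± 0.133) and Egr1 (2.38 ± 0.149) and the nuclear RNA Malat1 (3.11 ± 0.321) were higher in the diseased strain (adjusted p from edgeR = 7.98e-06, 4.36e-07 and 0.000207). The part of these differences in the results above was not tested. With total counts the median of all genes moved by 0.26 and higher genes made up 76.8% of calls in place of 52.7%.

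The other genes of the pathway were read from a list of 47 ligands, receptors, adaptors, kinases, caspases and BCL2 relatives, of which 45 were tested and Fasl and Lta were too low. With TNFa 7 rose and 2 fell (Otulin and Bmf), where 4.38% of all genes rose and 3.72% fell. With the replicate block 19 were called, where 17.4% of all genes were. The largest were Tnf itself (3.63 ± 0.615), the A20 partner Tnip1 (2.60 ± 0.290), Tnfaip3, which encodes the ubiquitin editor A20 (2.19 ± 0.214), the TRAF-binding adaptor Tank (2.00 ± 0.201) and Bcl2a1d. With IFNg 17 rose and 4 fell (all genes 8.57% and 4.32%), and with IFNa 16 rose and 2 fell (all genes 9.41% and 5.07%). The 5 largest with each interferon, measured against shared controls, were the death ligand gene Tnfsf10, which encodes TRAIL (3.86 ± 0.765 with IFNg and 5.29 ± 0.812 with IFNa), Tnf (4.20 ± 0.629 and 3.07 ± 0.605), Mlkl, the executioner of necroptosis (3.09 ± 0.494 and 3.08 ± 0.494), and the BH3-only genes Bmf (-2.02 ± 0.324 and -1.78 ± 0.321) and Bid (1.68 ± 0.201 and 1.61 ± 0.2). Under IL-6, 0 passed the edgeR test, DESeq2 called 1 (2.55% of all genes) and the replicate block 5 (4.88% of all genes). An unadjusted p under 0.05 was found for 8, a count for which the share of all genes was not computed. The list's median was 0.27 with TNFa, 0.43 with IFNg, 0.38 with IFNa and 0.05 with IL-6, beside -0.04 to 0.00 over all genes.

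With the mixture 25 of the listed genes rose and 3 fell (median 0.86), where 15.7% of all genes rose and 16.4% fell. Tnfsf10 went from 7.09 ± 5.34 to 531 ± 58.6 CPM (SD, n = 3; 6.28 ± 0.848), Tnf from 5.76 ± 0.896 to 163 ± 67.1 CPM (4.88 ± 0.646) and Mlkl from 11.7 ± 6.01 to 151 ± 39.3 CPM (3.74 ± 0.507). Bmf went from 25.9 ± 5.43 to 2.20 ± 0.362 CPM (-3.49 ± 0.352), and Tank rose by 2.87 ± 0.207. Against TNFa alone 21 were higher and 6 lower (12.6% of all genes in each direction), among them Tnfsf10 (4.62 ± 0.777), Mlkl (3.46 ± 0.499), Bmf (-2.13 ± 0.340) and the necroptosis kinase Ripk3 (1.84 ± 0.293). Against IFNg alone 14 were higher and 1 (Bmf) lower, where 6.45% of all genes were higher and 7.83% lower. Among the higher were Bcl2a1d (2.15 ± 0.277), the apoptosome gene Apaf1 (2.08 ± 0.198), the TNF receptor gene Tnfrsf1b (1.86 ± 0.340) and Tank (1.69 ± 0.198). Tnfsf10 had the largest change (2.42 ± 0.702, edgeR adjusted p = 0.0321), a call lost without any of 5 libraries (up to 0.12) or without a filter (0.09). Bid (-2.99 ± 0.543, edgeR adjusted p = 0.0091) and Tank (-2.22 ± 0.534, 0.0467) fell short of the sum of the single cytokines. Both lost that call without unstimulated replicate 1 (0.0652 and 0.198), and Tank without any of 15 of the 18 libraries.

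In adult MRL/lpr microglia, 15 of the 45 listed genes were higher and 8 lower (median 0.02), a share called close to that of all genes (24.1% higher and 21.6% lower). Tnf was highest by change, at 15.1 ± 3.21 against 2.72 ± 0.866 CPM (SD, n = 3; 2.44 ± 0.282). Map3k14, the kinase NIK that TRAF3 and the cIAPs keep low as a protein, rose by 1.93 ± 0.144, the IkappaB kinase gene Ikbkb by 1.41 ± 0.126, Bcl2l2 by 1.22 ± 0.249 and Bax by 1.07 ± 0.181. The receptor genes Tnfrsf1a and Tnfrsf1b were among those that fell.

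Over the 18 cultured libraries, the 10 genes were closest in pattern as Cflar and Mcl1, with a Pearson r of log2 CPM of 0.97. Bcl2l1 was at -0.04 with Traf1 and at -0.03 with Traf3. The other genes most like each member, predicted genes left out, were Nfkbie (0.96), Marcksl1 (0.96) and Ikbke (0.95) for Traf1; Relb (0.98), Nfkbie (0.98) and Gsap (0.98) for Birc3; Nfkbib (0.98), Smpdl3b (0.97) and Mdm2 (0.96) for Traf2. For Traf3 they were Elmsan1 (0.91), Jdp2 (0.91) and Gtf3c5 (0.89), and for Birc2 Slc2a6 (0.97), Nfkb1 (0.97) and Slc31a2 (0.97). Among the nearest to Cflar were M6pr (0.97) and Nab1 (0.96), and to Mcl1 Neurl3 and Slc2a6 (0.96), while Bcl2a1a was nearest its copy Bcl2a1d (0.97), Spryd7 (0.96) and Sema4d (0.95). Among the nearest to Bcl2l1 were Arid5a (0.97) and Rab1a (0.95), and Fas was nearest Vcam1 (0.89), Phlda1 (0.87) and C3 (0.84). These values describe libraries that share treatments and culture, and carry no test.

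Promoters of the members were searched in the 250 bases before each RefSeq start (GRCm38.p6, the patch release of mm10) on both strands for the NF-kappaB consensus, for the interferon gamma element GAS (ttcnnngaa) and for the interferon element ISRE (tttc, any 2 bases, tttc). All 10 genes had a window, Bcl2l1 with 3 and Birc2 with 2. Of all 32851 windows, 7.25% held the first, 7.02% the second and 2.98% the third. Shown are the 2 members that rose most with TNFa, Traf1 (chr2:34961773-34962022, minus strand) and Birc3 (chr9:7873171-7873420, minus strand), which held 0 of the 3 motifs. Traf3 (chr12:111166120-111166369, plus strand) and Fas (chr19:34290409-34290658, plus strand) each held 1. Sequences run 5′ to 3′ along the gene, and capitals mark a match, the NF-kappaB consensus in Traf3 and GAS in Fas.
Traf1: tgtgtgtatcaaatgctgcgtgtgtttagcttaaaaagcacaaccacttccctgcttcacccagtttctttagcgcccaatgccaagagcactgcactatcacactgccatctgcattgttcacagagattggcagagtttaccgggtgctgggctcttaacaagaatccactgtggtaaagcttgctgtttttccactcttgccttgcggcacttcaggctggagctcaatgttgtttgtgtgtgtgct
Birc3: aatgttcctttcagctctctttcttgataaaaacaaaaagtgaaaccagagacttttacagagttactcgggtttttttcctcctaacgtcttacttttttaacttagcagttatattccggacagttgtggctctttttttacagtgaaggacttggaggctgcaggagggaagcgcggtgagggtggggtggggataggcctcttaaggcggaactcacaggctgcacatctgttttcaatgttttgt
Traf3: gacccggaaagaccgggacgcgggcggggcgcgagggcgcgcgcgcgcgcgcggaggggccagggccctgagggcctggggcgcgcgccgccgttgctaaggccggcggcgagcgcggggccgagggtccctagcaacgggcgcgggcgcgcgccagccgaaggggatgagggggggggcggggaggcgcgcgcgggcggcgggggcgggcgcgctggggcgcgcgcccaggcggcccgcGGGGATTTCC
Fas: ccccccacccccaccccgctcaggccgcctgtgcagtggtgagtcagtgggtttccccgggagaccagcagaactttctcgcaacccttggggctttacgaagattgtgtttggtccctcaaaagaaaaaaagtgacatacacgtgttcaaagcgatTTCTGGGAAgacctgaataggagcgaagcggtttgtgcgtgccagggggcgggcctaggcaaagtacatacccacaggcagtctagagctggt
The Traf3 match, GGGGATTTCC, lies at bases 10 to 1 before the start, and the Fas match, TTCTGGGAA, at bases 93 to 85 and reads as the motif on both strands. Bcl2l1 held the NF-kappaB consensus in 1 of its 3 windows. The windows of the other members held none of the 3 motifs, which says only that these letters are not in 250 bases.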

How the data were processed

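RNA-seq libraries of CD11b-selected mouse brain cells were analysed from the deposited count table, which holds unnormalised whole reads for each gene per the file headers. A deposited column of gene lengths (in bases, another kind of value) was used for levels per kilobase. The submitters' processing notes name cutadapt 2.1, STAR 2.7.1a and the mm10 build. How reads were counted, and with which strand option, is not given in the sources used here. Coordinates are from GENCODE M21 and promoters from RefSeq.

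Tests were run with edgeR 4.0.16 under R 4.3.3: low genes were left out with filterByExpr, libraries were scaled by TMM, and calls came from the robust quasi-likelihood F test with Benjamini-Hochberg adjustment over all genes and a threshold of 0.05. The 18 cultured (14626 genes, 12 residual degrees of freedom) and 6 adult libraries (13799 genes, 4) were fitted apart. Printed levels use TMM over all 24 libraries. The members and lists were chosen with earlier results of these data known. All members are named in every comparison, and of the pathway list up to 5 called genes with the largest change per comparison. The genes most like each member in pattern are the 3 with the highest r. Some genes that these rules pick are not reported here. No 2 libraries of a group were identical, and the 24 pairs differed by more than counting error (chi-square per degree of freedom at least 5.36).

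Same-numbered cultured libraries deviated together (45 of 45 pairs with r over 0.1, 0.184 to 0.687), so the numbers pair them, though the labels give the numbers no meaning. In adults 2 of 3 pairs did, and the numbers were not read as pairs. The main tests left out the pairing of the cultured libraries. With the replicate block more genes were called, 17.4% in place of 8.1% with TNFa, so a gene that did not pass the main test may pass with it. On simulated counts for the TNFa comparison (14259 genes), the test found 42% of planted 2-fold changes and 62% of planted 4-fold ones, with 4.59% of its calls false. For the adult comparison (13460 genes) these were 56%, 87% and 6.54%. The simulated libraries were drawn independently, without the replicate pairing, and few genes were changed, with equal numbers up and down. In the real data 8.1% of genes were called with TNFa and 45.7% in adults, so these rates may not hold for the real comparisons. Alternatives were a replicate block, DESeq2 1.42.0, RLE factors, total counts, no filter, a filter of 1 CPM in 3 libraries, and each library left out.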

Additional observations from a re-analysis of the deposited data

How the results depend on the processing

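Of the 52 called changes of single members, 8 values over all settings that keep every library and 28 that leave 1 out lost their call, and 0 changed sign. With the replicate block, members called (share of all genes called with it) numbered 9 with IFNg (23.7%), 8 with IFNa (25.4%), 10 with TNFa (17.4%), 10 with the mixture (43.2%), and 6 and 8 for the mixture against TNFa (37%) and IFNg (26.3%). In adults, whose replicate numbers were not read as pairs, the block gave 6 (50.2%), with Bcl2a1a lower in addition (edgeR adjusted p = 0.0221). Little can be read from that block. Members called with the block were 2 with IL-6 (4.88%), where DESeq2 called 1 (2.55%). Against the sum of single cytokines the block gave 5 (6.56%), and no filter on low counts left 1 (0.82%). Leaving out 1 library gave 2 to 5 members for the mixture against TNFa, where 18.6% to 22.1% of all genes were called. Against the sum it gave 1 to 2, where 0.497% to 1.96% of all genes were called. Uncalled values near 0 changed sign. With total counts these were Traf2 with IL-6 (-0.012), Traf3 with IFNa (-0.14), Traf1 (-0.0028) and Birc2 (-0.055) for the mixture against TNFa, Bcl2l1 for the mixture against IFNg (-0.15) and Bcl2l1 in adults (0.13). Birc3 for the mixture against TNFa was 0.021 with DESeq2 and with RLE factors. Leaving out 1 library gave, with IL-6, -0.42 to 0.76 for Traf1, -0.096 to 0.19 for Traf2 and -0.16 to 0.32 for Traf3. It gave -0.064 to 0.20 for Traf3 with IFNa and -0.15 to 0.16 for Birc3 in the mixture against TNFa. The cause of these moves was not tested. The settings for the pathway list were chosen after seeing the data. Low counts limit Traf1 and Fas, with 14 and 35 reads over the unstimulated libraries.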
